A study of Mus musculus with 16 samples.

Results

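The training response of gastrocnemius muscle lacking interleukin-13 was set against that of wild-type muscle, gene by gene. The quantity is the difference of responses on the log2(RPKM + 0.1) scale, the response in Il13 knockout (KO) muscle, trained minus untrained, minus the same response in wild-type (WT) muscle. RPKM is the read count of a gene scaled to its length and to the library total. A gene entered if 4 or more of the 16 libraries reached 1 RPKM, which 10171 of the 23440 genes in the table did (43.4%). The groups were KO trained, KO untrained, WT trained and WT untrained, with 4 mice each. Trained mice, KO (Il13-/-) or WT, had run daily on a treadmill for 5 weeks, and untrained mice of both genotypes were the controls. All mice were C57Bl6/J males, 20 weeks of age, and every library came from a mouse of its own. The sources used here do not give how the knockout was made, whether WT mice were littermates or how long after the last run the muscle was taken.

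Interleukin-13 is a type 2 cytokine that binds a receptor made of Il13ra1 and Il4ra and passes its signal through Janus kinases to STAT transcription factors, chiefly Stat6. In muscle it has been linked to Stat3 and to the estrogen-related receptors, nuclear receptors that, with the coactivator Ppargc1a, drive genes of fatty acid oxidation and mitochondria. Endurance training is known to raise oxidative metabolism in mouse muscle and to shift fibres away from the fastest glycolytic type.

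The libraries held 16307025 to 20074677 reads. The share of those reads in listed genes was 75.6% to 78.3% in KO trained, 77.2% to 81.7% in KO untrained, 76.0% to 83.5% in WT trained and 80.0% to 83.3% in WT untrained libraries. Il13 had 0, 1, 0 and 1 reads in KO trained and 2, 1, 0 and 0 reads in KO untrained libraries, and 0 in all 8 WT libraries. A count of 0 allows up to 3 reads, here 0.124 to 0.153 RPKM (counting error only), so this depth gives no check of the genotype labels. The 14 muscle fibre genes used to check the tissue were all expressed, among them Myh4, the type 2B myosin heavy chain, at 9260.9 ± 606 RPKM in KO trained, 9611.1 ± 720 in KO untrained, 8365.2 ± 695 in WT trained and 9977.1 ± 644 in WT untrained muscle (SD, n = 4 per group). WT trained 1 had the lowest weight of any library when libraries were weighted by their scatter (0.309, where 1 is average).

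No gene passed the test of the difference. The count at an adjusted p under 0.05 (limma, Benjamini-Hochberg over all tested genes) was 0 of 10171 (0%), and the smallest adjusted p, 0.526, was shared by 231 genes. An unadjusted p under 0.05 was reached by 854 genes (8.40%), while 508.6 would be expected if no gene differed. Genes measured in the same libraries are not independent, and leaving out 1 library gave 577 to 1317, so the excess was not tested. Of the 854, 615 lay below 0, the KO response being the lower (6.05% of tested genes), and 239 above 0 (2.35%). The share below 0 was 72.0% of the 854 here, 50.8% of 1005 genes after quantile normalization and 81.5% of 1058 genes after scaling to the reads in listed genes, a setting added after seeing the data. Leaving out 1 library took it to 54.4% of 720 genes without WT trained 1 and to 82% of 1317 genes without KO untrained 4. The median over all tested genes was -0.0495, and 6262 genes (61.6%) lay below 0. A typical 95% interval reached 0.31 on the log2 scale to either side of the estimate, with a median SE of 0.146. Every difference given below is an estimate from this fit that did not pass, unless another setting is named with it.

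The signs of the responses of the 854 genes are a description, since a gene chosen for a large difference is more likely to have responses of opposite sign. In 539 of them the KO response was negative and the WT response positive, in 175 the reverse, in 82 both were positive and in 58 both negative. Opposite signs were found in 83.6% of the 854 and in 42.2% of all tested genes. Responses in both genotypes at an unadjusted p under 0.05 with opposite signs were found for 21 of the 854, and with the same sign for 2. The response alone in KO reached that level for 314 and that alone in WT for 339. The larger response was the WT one for 436 genes and the KO one for 418.

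Training in KO muscle gave 0 genes at an adjusted p under 0.05 (0%) and 1398 at an unadjusted p under 0.05, and training in WT muscle gave 19 (0.187%) and 1202. Of the 19, 13 rose and 6 fell in WT. The KO response was smaller in size than the WT response for all 19, and had the same direction for 16. The median size was 0.0792 in KO, counted in the direction of WT, and 0.52 in WT. Since the 19 were picked for their WT response, and those WT libraries enter the difference, these values describe the genes and are no separate evidence.

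**Figure D1:**
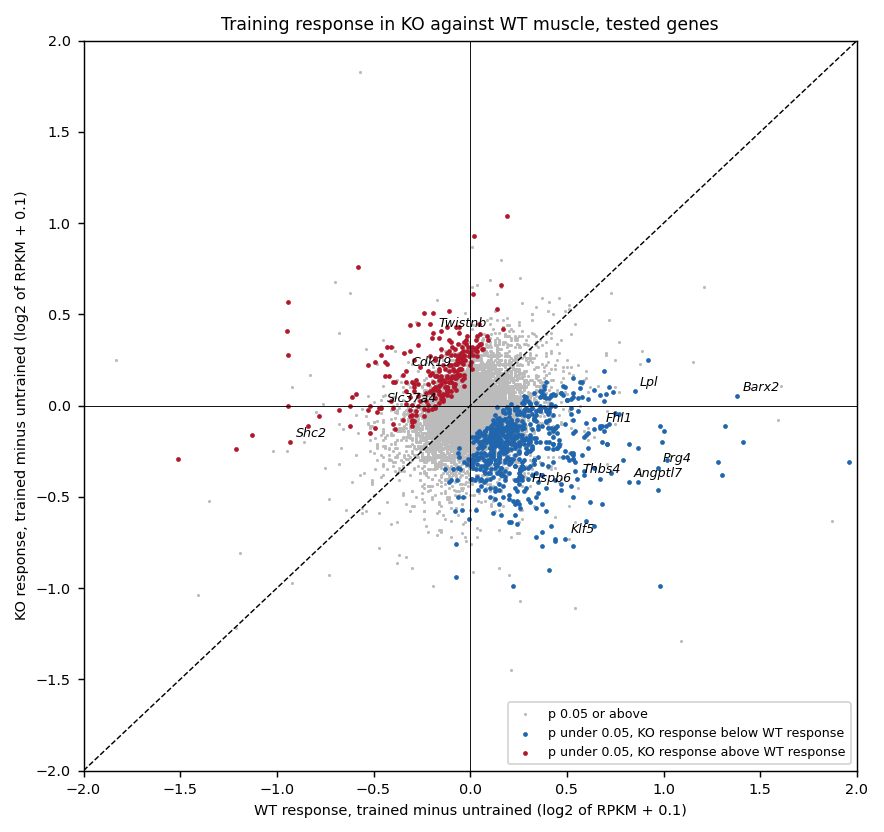
Each point is 1 of 10162 tested genes; 9 lie outside the axes. The vertical axis gives the response in KO and the horizontal axis that in WT, both trained minus untrained on the log2(RPKM + 0.1) scale, and on the dashed line the responses are equal. Blue and red points have an unadjusted p under 0.05 for a KO response below (615 genes) or above (239 genes) the WT response, and 12 genes are labelled.

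Among genes with a KO response below the WT response, the smallest p belonged to Fhl1, a LIM-domain protein of the sarcomere (chromosome X, 56731787 to 56793346, mm10, as for all positions here). It measured 209, 182, 255 and 188 RPKM in KO trained and 238, 224, 256 and 184 in KO untrained muscle, and 364, 317, 330 and 339 in WT trained and 236, 222, 176 and 215 in WT untrained muscle. All 4 WT trained libraries lay above the other 12, and the KO groups overlapped. The log2 response was -0.12 in KO and 0.67 in WT (adjusted p = 0.0322 in WT, limma), a difference of -0.79 (SE 0.16, 95% interval -1.13 to -0.45, adjusted p = 0.526).

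Klf5, a zinc-finger transcription factor (chromosome 14, 99298691 to 99313409), had 18 to 50 reads per library. It measured 0.812, 0.562, 0.93 and 0.774 RPKM in KO trained and 1.55, 1.15, 1.69 and 1.01 in KO untrained muscle, against 1.67, 1.32, 1.42 and 1.63 in WT trained and 0.784, 0.996, 1.07 and 1.38 in WT untrained muscle. The KO trained libraries all lay under the KO untrained ones, while the WT groups overlapped by 1 library. The response was -0.73 in KO and 0.49 in WT, a difference of -1.22 (SE 0.26, adjusted p = 0.526, limma).

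Myh2, the oxidative type 2A myosin heavy chain (chromosome 11, 67171027 to 67197517), measured 399, 352, 562 and 375 RPKM in KO trained and 421, 479, 504 and 387 in KO untrained muscle, against 716, 526, 637 and 650 in WT trained and 383, 408, 356 and 379 in WT untrained muscle. It rose in WT, where the groups did not overlap, and KO trained 3 was the 1 KO library inside the WT trained range. The difference was -0.82 (SE 0.18, adjusted p = 0.526, limma), with responses of -0.10 in KO and 0.72 in WT. Without KO trained 3 it was -0.97 and passed (adjusted p = 0.0168, limma). That library was the highest KO one, so leaving it out widens the difference. No other fit that left out 1 library gave a passing gene.

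Prg4, lubricin, a glycoprotein of joint and tendon surfaces (chromosome 1, 150449412 to 150466165), measured 4.97, 7.77, 11.2 and 5.81 RPKM in KO trained and 9.86, 8.72, 10.7 and 7.08 in KO untrained muscle, against 14.0, 11.6, 10.2 and 14.2 in WT trained and 7.05, 6.28, 5.53 and 6.38 in WT untrained muscle. The WT groups did not overlap and the KO groups did, again with KO trained 3 highest in its group. The difference was -1.31 (SE 0.28, adjusted p = 0.526, limma), and -1.53 without KO trained 3 (adjusted p = 0.0168, limma). As for Myh2, leaving out the highest KO library widens the difference.

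In the other direction Twistnb, a subunit of RNA polymerase I (chromosome 12, 33429624 to 33439380), had the smallest p. It measured 4.49, 4.94, 4.50 and 4.36 RPKM in KO trained and 3.16, 3.36, 3.65 and 3.62 in KO untrained muscle, against 3.38, 4.13, 3.28 and 3.28 in WT trained and 4.35, 3.74, 3.70 and 4.32 in WT untrained muscle. Every KO trained library lay above every KO untrained one, and the WT groups overlapped. The response was 0.40 in KO and -0.19 in WT, a difference of 0.59 (SE 0.13, adjusted p = 0.526, limma).

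Slc37a4, the transporter that carries glucose 6-phosphate into the endoplasmic reticulum (chromosome 9, 44398176 to 44402965), measured 34.8, 35.8, 31.2 and 35.1 RPKM in KO trained and 34.2, 32.2, 35.2 and 36.4 in KO untrained muscle, against 32.6, 34.4, 34.2 and 27.8 in WT trained and 42.8, 44.6, 48.7 and 41.2 in WT untrained muscle. The WT untrained libraries stood above the other 12. It fell with training in WT (-0.46, adjusted p = 0.0265, limma), with a KO response of -0.0112 and a difference of 0.45 (SE 0.11, adjusted p = 0.526).

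Cdk19, a kinase of the Mediator complex (chromosome 10, 40349308 to 40483818), measured 10.6, 13.2, 12.3 and 11.9 RPKM in KO trained and 10.5, 11.6, 10.3 and 9.51 in KO untrained muscle, against 8.98, 11.2, 10.4 and 8.84 in WT trained and 12.1, 11.8, 12.7 and 13.1 in WT untrained muscle. Its WT groups were apart and its KO groups overlapped. The difference was 0.52 (SE 0.12, adjusted p = 0.526, limma), from responses of 0.19 in KO and -0.33 in WT.

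Hist3h2a, a histone H2A gene (chromosome 11, 58954685 to 58956674), measured 3.97, 3.19, 3.54 and 3.54 RPKM in KO trained and 3.18, 3.17, 3.48 and 2.78 in KO untrained muscle, against 3.64, 3.62, 3.03 and 3.18 in WT trained and 4.67, 4.09, 4.29 and 4.25 in WT untrained muscle. As for Slc37a4, the WT untrained libraries were the highest. The difference was 0.52 (SE 0.13, adjusted p = 0.526, limma). Exons of Hist3h2a overlap another gene on the same strand, so its level is uncertain, and those of Myh2, Prg4 and Cdk19 overlap a gene on the other strand.

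**Figure D2:**
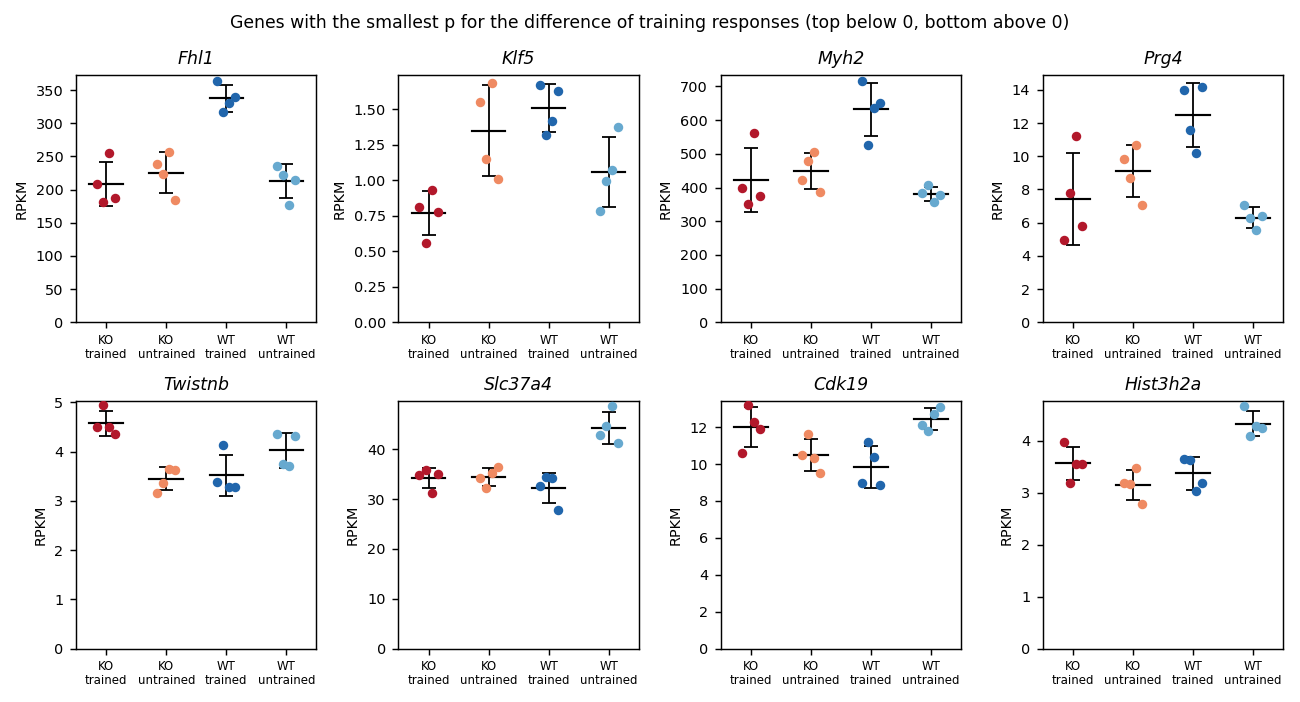
RPKM per library (vertical axis, from 0) in KO trained, KO untrained, WT trained and WT untrained muscle for the 4 genes with the smallest p in each direction. Points are libraries, long bars are means and error bars are SD (n = 4). Fhl1, Myh2 and Prg4 were highest in WT trained muscle, and Slc37a4 and Hist3h2a were highest in WT untrained muscle.

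Promoters of the 2 genes in each direction with the smallest p among those in the RefSeq promoter table (GRCm38.p6) are shown, because they are the nearest regulatory sequence of the genes that led the comparison. Each runs from 250 bases before to 50 bases after an annotated start, 5′ to 3′ on the gene's strand, and matches to 3 motifs would stand in capitals. For Fhl1, which has 2 annotated starts in the table, the one nearer to the start of the deposited gene is given, 47896 bases away from it.
Fhl1, chrX:56779433-56779732, + strand: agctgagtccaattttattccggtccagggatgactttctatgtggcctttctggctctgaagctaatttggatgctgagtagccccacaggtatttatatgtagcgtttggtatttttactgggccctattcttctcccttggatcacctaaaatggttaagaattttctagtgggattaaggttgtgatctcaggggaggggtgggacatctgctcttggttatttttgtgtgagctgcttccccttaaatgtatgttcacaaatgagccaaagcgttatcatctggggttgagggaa
Myh2, chr11:67170777-67171076, + strand: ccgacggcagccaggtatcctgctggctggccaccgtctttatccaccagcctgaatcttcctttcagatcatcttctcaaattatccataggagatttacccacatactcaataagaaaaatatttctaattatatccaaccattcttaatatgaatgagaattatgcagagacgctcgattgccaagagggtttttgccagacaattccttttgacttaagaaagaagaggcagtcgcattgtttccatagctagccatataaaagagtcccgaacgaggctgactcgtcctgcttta
Twistnb, chr12:33429374-33429673, + strand: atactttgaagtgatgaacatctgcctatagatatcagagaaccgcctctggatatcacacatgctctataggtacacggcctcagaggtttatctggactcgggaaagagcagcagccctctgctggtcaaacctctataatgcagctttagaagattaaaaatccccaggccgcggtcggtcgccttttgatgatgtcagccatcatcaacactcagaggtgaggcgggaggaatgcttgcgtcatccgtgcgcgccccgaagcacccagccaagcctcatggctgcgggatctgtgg
Slc37a4, chr9:44398104-44398403, + strand: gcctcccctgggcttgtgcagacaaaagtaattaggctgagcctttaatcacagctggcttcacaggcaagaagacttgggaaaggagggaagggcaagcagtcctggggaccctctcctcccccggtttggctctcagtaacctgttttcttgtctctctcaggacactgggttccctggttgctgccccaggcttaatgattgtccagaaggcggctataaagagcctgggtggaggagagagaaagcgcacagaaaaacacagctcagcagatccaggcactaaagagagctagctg
The motifs were TCAAGGTCA for the estrogen-related receptors, TTCNNNGAA for STAT factors and CTATTTATA for MEF2, searched on both strands. None of the 4 windows holds one, so all bases are in lower case. Among 32544 promoters of that length the shares with a match were 0.412%, 8.33% and 0.433% in the same order, and the windows say nothing of more distant sequence.

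Among the next genes below 0 by p, Khdrbs3, an RNA-binding protein, averaged 4.35 ± 0.365 RPKM in KO trained and 4.54 ± 0.77 in KO untrained muscle, and 6.56 ± 1.03 in WT trained and 3.78 ± 0.465 in WT untrained muscle (SD, n = 4 per group). It rose in WT (0.77, adjusted p = 0.0322, limma), and the KO response was -0.0476. Fgf1, a fibroblast growth factor, averaged 9.41 ± 0.527 and 10.3 ± 0.834 RPKM in trained and untrained KO muscle and 11.8 ± 1.52 and 8.62 ± 1.01 in trained and untrained WT muscle, a difference of -0.57 (SE 0.14). Atxn2, an RNA-binding protein of stress granules, differed by -0.41 (SE 0.10). Prkcdbp, a caveolar coat protein also called Cavin3, had the larger response in KO. It averaged 8.22 ± 0.809 RPKM in KO trained and 12.5 ± 2.45 in KO untrained muscle, against 10.1 ± 0.668 in WT trained and 9.34 ± 1.12 in WT untrained muscle (difference -0.71, SE 0.17).

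Thg1l, which adds a guanosine to histidine transfer RNA, had a difference of -0.83 (SE 0.21) and also a level that went with genotype. It averaged 2.52 ± 0.357 RPKM in KO trained and 3.49 ± 0.606 in KO untrained muscle, and 1.97 ± 0.303 in WT trained and 1.48 ± 0.228 in WT untrained muscle (SD, n = 4 per group). Thg1l lies on chromosome 11, 7.68 Mb from Il13, and 2 other genes named here, Slc36a2 and Sparc, lie 1.52 and 1.76 Mb from it. Within 10 Mb of Il13, 13 of 159 tested genes had an unadjusted p under 0.05 for the difference (8.18%, 8 below and 5 above 0), near the 8.40% of all tested genes. That window was chosen after the position of Thg1l was seen.

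The next genes above 0 included Rab18, a small GTPase of the endoplasmic reticulum and lipid droplets, Naa50, an N-terminal acetyltransferase, and Lgalsl, a galectin-like protein. In each the KO response was positive and the WT response near 0. Naa50 averaged 52.2 ± 3.49 RPKM in KO trained and 40.9 ± 2.89 in KO untrained muscle, against 42.6 ± 4.59 in WT trained and 43.3 ± 0.901 in WT untrained muscle (SD, n = 4 per group), a difference of 0.38 (SE 0.11). Rab18 differed by 0.32 (SE 0.0827) and Lgalsl by 0.36 (SE 0.10). Shc2, a signalling adaptor, showed the other form: it averaged 2.95 ± 0.404 RPKM in KO trained and 3.40 ± 0.298 in KO untrained muscle, and fell to 2.03 ± 0.354 in WT trained against 3.98 ± 0.715 in WT untrained muscle (adjusted p = 0.0185 in WT, limma). Its difference was 0.73 (SE 0.20). Mgmt, the DNA repair enzyme that removes methyl groups from guanine, differed by 0.66 (SE 0.18), Hexim2, an inhibitor of the elongation factor P-TEFb, by 0.73 (SE 0.20), and Ppp1r14c, an inhibitor of protein phosphatase 1, by 0.43 (SE 0.13).

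The largest differences by size, among genes with an unadjusted p under 0.01, were mostly those of genes at low levels. H2-Q6, a class I histocompatibility gene of a multigene family whose reads can be split between near-identical copies, had 25, 24, 43 and 46 reads in KO trained, 6, 45, 18 and 33 in KO untrained, 0, 8, 15 and 0 in WT trained and 36, 34, 38 and 63 in WT untrained libraries. Its fitted difference of 3.83 (SE 0.97) depends on the added 0.1 RPKM, because 2 WT trained libraries were at 0, and its level is uncertain. S100a5, a calcium-binding protein, had 0 to 10 reads in any library, and its fitted difference of -2.69 depends on the same constant. Barx2, a homeobox factor, averaged 2.07 ± 0.87 RPKM in KO trained and 2.07 ± 1.16 in KO untrained muscle, against 4.25 ± 0.247 in WT trained and 1.59 ± 0.313 in WT untrained muscle (SD, n = 4 per group; difference -1.33, SE 0.40). The KO libraries numbered 3 were at 3.35 RPKM trained and 3.79 untrained, and the other 6 KO libraries were at 1.32 to 1.85. Slc36a2, a proton-coupled amino acid transporter, differed by -1.31 (SE 0.37), Dok2, an adaptor of blood cells, by -1.30 (SE 0.42), and Angptl7, a secreted angiopoietin-like protein, by -1.24 (SE 0.37). Thbs1, the matrix glycoprotein thrombospondin 1, differed by -1.22 (SE 0.39).

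Responses of opposite sign that each reached an unadjusted p under 0.05 led with Klf5, Twistnb and Cdk19, given above, and Hspb6, Thbs4 and Ptgis. Hspb6, a small heat shock protein of muscle, averaged 446 ± 23.7 RPKM in KO trained and 610 ± 55.9 in KO untrained muscle, against 736 ± 155 in WT trained and 598 ± 88.0 in WT untrained muscle (SD, n = 4 per group). Its 4 KO trained libraries, at 464, 415, 466 and 440 RPKM, lay under the other 12, and the difference was -0.74 (SE 0.17). After quantile normalization it was -0.66 and passed (adjusted p = 0.0309, limma), the 1 gene that did so under that setting. Thbs4, thrombospondin 4, a matrix glycoprotein of tendon and muscle, averaged 38 ± 8.54 RPKM in KO trained and 49.9 ± 8.83 in KO untrained muscle, and 62.7 ± 8.69 in WT trained and 42.7 ± 4.41 in WT untrained muscle (difference -0.95, SE 0.22). Ptgis, prostacyclin synthase, averaged 1.85 ± 0.525 and 2.50 ± 0.371 RPKM in trained and untrained KO muscle and 2.66 ± 0.186 and 1.85 ± 0.28 in trained and untrained WT muscle (difference -0.96, SE 0.23).

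The series addresses interleukin-13 signalling, so the genes of that pathway were read next. Of 19 listed genes for the interleukin-13 and interleukin-4 receptors, Janus kinases and STATs, 14 were tested, with a median difference of -0.25. Of the 14, 10 lay below 0 and 4 above, where 61.6% of all tested genes lay below 0. An unadjusted p under 0.05 was reached by 3 (21.4%, against 8.40% of all tested genes), and an adjusted one by none. The median was -0.10 without KO untrained 1, -0.16 without WT trained 1 and -0.15 without WT untrained 3. Il4ra, the shared receptor chain, averaged 1.76 ± 0.218 RPKM in KO trained and 2.41 ± 0.862 in KO untrained muscle, against 1.72 ± 0.306 in WT trained and 1.78 ± 0.278 in WT untrained muscle (SD, n = 4 per group), and KO untrained 1, at 3.63 RPKM, was its highest library. The difference was -0.33 (95% interval -0.90 to 0.24), and -0.12 without that library. Il13ra1, the other receptor chain, was under the filter with 31 to 84 reads per library, and averaged 0.868 ± 0.247, 0.826 ± 0.185, 0.838 ± 0.195 and 0.739 ± 0.18 RPKM in KO trained, KO untrained, WT trained and WT untrained muscle. The decoy receptor Il13ra2 was at 0 reads in every library.

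Among the STATs, Stat3 measured 10.3, 10.4, 10.8 and 10.5 RPKM in KO trained and 15.6, 15.4, 12.2 and 10.6 in KO untrained muscle, against 13.1, 11.4, 11.4 and 12.4 in WT trained and 12, 11.3, 11.1 and 12.1 in WT untrained muscle. KO untrained 4 lay within the KO trained range, and the WT groups overlapped. The response was -0.33 in KO and 0.0538 in WT, a difference of -0.39 (95% interval -0.68 to -0.10, adjusted p = 0.529, limma). Stat6, the main interleukin-13 transducer, averaged 6.43 ± 0.285 RPKM in KO trained and 7.31 ± 0.80 in KO untrained muscle, and 7.10 ± 0.595 in WT trained and 6.65 ± 0.692 in WT untrained muscle, a difference of -0.27 (95% interval -0.54 to -0.00652). Jak3, a kinase of cytokine receptors, differed by -0.42 (95% interval -0.83 to -0.0066) and Stat5b, a STAT of growth hormone and cytokine signalling, by 0.37 (95% interval -0.0175 to 0.75). Exons of Stat3 and Stat6 overlap a gene on the other strand and those of Jak3 a gene on its own. Of 20 tested genes known as Stat3 targets, 0 lay below 0 and 1 above 0 at an unadjusted p under 0.05 (5%, against 8.40% of all tested genes). Their median was -0.0672 and ran from -0.21 without KO untrained 4 to -0.000196 without KO untrained 1. The 1 was Cebpd, a transcription factor of acute responses, which averaged 5.89 ± 1.32 RPKM in KO trained and 4.59 ± 1.80 in KO untrained muscle, against 3.64 ± 1.60 in WT trained and 6.91 ± 2.13 in WT untrained muscle (difference 1.37, SE 0.49).

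The estrogen-related receptors and their partners were tested as 21 regulators, with a median difference of -0.16. At an unadjusted p under 0.05, 4 lay below 0 and 0 above (19%, against 8.40% of all tested genes). The median was -0.10 without KO untrained 1 and -0.0929 without WT trained 1. Esrra, the receptor most often tied to muscle oxidative genes, averaged 35.2 ± 2.99 RPKM in KO trained and 35.6 ± 4.02 in KO untrained muscle, against 38.4 ± 4.64 in WT trained and 34.6 ± 3.67 in WT untrained muscle (SD, n = 4 per group). Its difference of -0.16 had a 95% interval of -0.46 to 0.14. Esrrg, the receptor of slow and oxidative muscle, averaged 4.37 ± 0.549 and 4.26 ± 0.74 RPKM in trained and untrained KO muscle and 5.26 ± 0.351 and 4.00 ± 0.452 in trained and untrained WT muscle, a difference of -0.35 (95% interval -0.69 to -0.000683). Ppargc1a, the coactivator, averaged 6.08 ± 1.32 RPKM in KO trained and 8.0 ± 4.71 in KO untrained muscle, where KO untrained 1 stood at 14.6 RPKM, against 5.64 ± 0.707 in WT trained and 5.17 ± 0.777 in WT untrained muscle. Its difference of -0.37 had a 95% interval of -1.25 to 0.50 and was -0.0312 without KO untrained 1. Ppara, the nuclear receptor of fatty acid oxidation, averaged 3.56 ± 0.478 RPKM in KO trained and 4.33 ± 0.991 in KO untrained muscle, and 4.25 ± 0.687 in WT trained and 2.92 ± 0.471 in WT untrained muscle, a difference of -0.78 (SE 0.23). Esrrb, the third receptor of this family, differed by -0.79 (SE 0.27), and Pparg, a nuclear receptor of fat cells, by -0.65 (SE 0.27). Esrra exons overlap genes on either strand, so its level is uncertain.

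**Figure D3:**
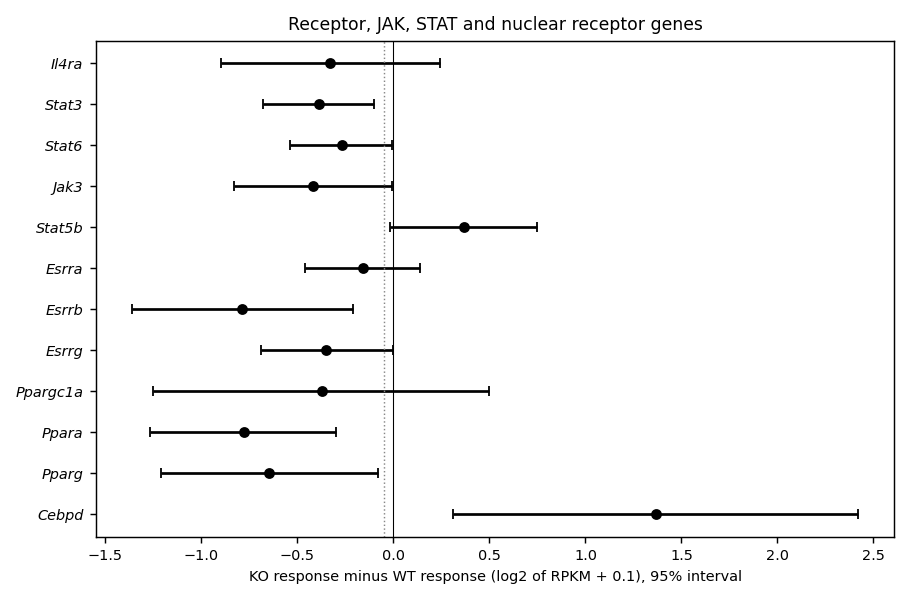
The difference of responses, KO minus WT, on the log2(RPKM + 0.1) scale (horizontal axis) for 12 genes of the receptor, kinase, STAT and nuclear receptor lists. Points are limma estimates, bars their 95% intervals, and the dotted line is the median of all tested genes (-0.0495). The intervals of Il4ra, Stat5b, Esrra and Ppargc1a include 0, and that of Cebpd lies above it.

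Of 28 tested targets of the estrogen-related receptors, 15 lay below 0 and 0 above at an unadjusted p under 0.05 (53.6%, against 8.40% of all tested genes), with a median of -0.31, and 0 passed at an adjusted p. The median response was 0.0573 in KO and 0.31 in WT. The fatty acid list, which shares 12 genes with it and so is not separate, had 17 of 40 below 0 and 0 above at that level (42.5%, against 8.40% of all tested genes). Its median was -0.27, from responses of 0.0455 in KO and 0.27 in WT, and -0.17 without KO untrained 3. Lpl, which hydrolyses triglyceride of blood lipoproteins, averaged 126 ± 22.2 RPKM in KO trained and 120 ± 23.3 in KO untrained muscle, against 152 ± 14.2 in WT trained and 85.5 ± 15.3 in WT untrained muscle (SD, n = 4 per group). It rose in WT without overlap, and the KO groups overlapped (difference -0.77, SE 0.21, adjusted p = 0.526, limma).

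Hadha, a subunit of the trifunctional protein of fatty acid oxidation, averaged 99.0 ± 8.62 RPKM in KO trained and 99.3 ± 11.8 in KO untrained muscle, against 125 ± 14.6 in WT trained and 91.4 ± 4.80 in WT untrained muscle (SD, n = 4 per group; difference -0.45, SE 0.13). Acsl1, which activates long-chain fatty acids, differed by -0.40 (SE 0.13) and Etfa, which passes their electrons to the respiratory chain, by -0.30 (SE 0.0947); both rose in WT. Fabp3, the fatty acid binding protein of oxidative muscle, differed by -0.70, and Cpt1b, which admits fatty acids to mitochondria, differed by -0.31. Fabp3 and Cpt1b fall outside the rule for named genes and were chosen after their values were seen. Ldhb, the lactate dehydrogenase subunit of oxidative tissue, averaged 122 ± 26.4 RPKM in KO trained and 132 ± 30.1 in KO untrained muscle, against 189 ± 37.3 in WT trained and 115 ± 15.7 in WT untrained muscle (-0.81, SE 0.24).

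Other energy pathways had smaller medians. The tricarboxylic acid cycle had a median of -0.14, with 4 of 24 below 0 and 0 above at an unadjusted p under 0.05 (16.7%, against 8.40% of all tested genes). These were Ogdh (-0.32, SE 0.11), Mdh1 (-0.37, SE 0.13), Idh2 (-0.59, SE 0.25) and Cs (-0.19, SE 0.0879), all dehydrogenases of the cycle or its shuttle save Cs, the citrate synthase. The cycle list shares 7 genes with the estrogen-related receptor targets, Mdh1 and Cs among them, so the lists are not separate. Oxidative phosphorylation had 2 of 78 below 0, Ndufa10 and Cox6a1, and 1 above, Ndufb6, at that level (3.85%, under the 8.40% of all tested genes), with a median of -0.0761. The mitochondrial ribosome had 8 of 76 below 0 and 0 above (10.5%, near the 8.40% of all tested genes), with a median of -0.12. The smallest p among the 8 belonged to Mrpl41 (-0.43) and Mrpl3 (-0.34). Glycolysis and glycogen had 4 of 36 below and 3 above (19.4%), with a median of 0.0566 that ran from 0.00541 without WT untrained 2 to 0.11 without WT untrained 1. Gbe1, the glycogen branching enzyme, differed by -0.46 (SE 0.14) and Slc2a1, the basal glucose transporter, by -0.62 (SE 0.22). The median of oxidative phosphorylation was -0.0235 without WT trained 1 and -0.0245 without KO untrained 3.

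Genes of slow and oxidative fibres had the widest difference among lists of fibre and metabolism. Of 24 tested, 17 lay below 0 and 1 above at an unadjusted p under 0.05 (75%, against 8.40% of all tested genes). The 1 above, the only member above 0, differed by 0.26. At an adjusted p 0 passed, and the median was -0.70, from responses of -0.14 in KO and 0.56 in WT. Beside Fhl1 and Myh2, Actn2, the alpha-actinin of all striated fibres, averaged 239 ± 33.1 RPKM in KO trained and 263 ± 33.1 in KO untrained muscle, against 350 ± 50.6 in WT trained and 242 ± 41.1 in WT untrained muscle (SD, n = 4 per group; difference -0.68, SE 0.19). Myoz2, the slow calsarcin of the Z-disc, averaged 47.7 ± 6.71 and 59.5 ± 9.34 RPKM in trained and untrained KO muscle and 76.3 ± 15.3 and 56.3 ± 9.21 in trained and untrained WT muscle (-0.75, SE 0.21). Casq2, the slow-fibre calsequestrin, differed by -0.62 (SE 0.22). Mb, myoglobin, the oxygen store of oxidative fibres, differed by -0.46 (95% interval -0.94 to 0.0216). The slow fibre list shares 3 genes with the estrogen-related receptor targets, Mb and Fabp3 among them.

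Myh7, the myosin heavy chain that defines slow type 1 fibres, was chosen after its values were seen. It measured 21.3, 13.3, 68.4 and 8.24 RPKM in KO trained and 33.9, 7.50, 61.5 and 23.9 in KO untrained muscle, against 52.4, 47.9, 66.7 and 38.1 in WT trained and 23.5, 3.30, 17.3 and 5.23 in WT untrained muscle. The WT groups did not overlap, and within KO the libraries numbered 3 were at the WT trained level in both states. The difference was -2.74 (SE 1.12, adjusted p = 0.55, limma), and its 95% interval ran from -5.18 to -0.31. The slow troponins Tnni1 (-2.55), Tnnc1 (-2.59) and Tnnt1 (-2.27), also chosen after their values were seen, had intervals as wide. Type 2X myosin, Myh1, chosen in the same way, differed by -0.50 (95% interval -1.07 to 0.0684).

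Most fast glycolytic fibre genes went the other way, with 0 below and 5 of 24 above 0 at an unadjusted p under 0.05 (20.8%, against 8.40% of all tested genes). Of the 24, 23 lay above 0, where 38.4% of all tested genes did, and the 1 below was Myh1 (-0.50). The list median was 0.14, from responses of -0.077 in KO and -0.23 in WT. Actn3, the actinin of fast fibres, averaged 2377.9 ± 197 RPKM in KO trained and 2356.6 ± 58.4 in KO untrained muscle, against 2102.2 ± 176 in WT trained and 2649.8 ± 213 in WT untrained muscle (SD, n = 4 per group; difference 0.34, SE 0.10). Mylpf, the fast regulatory light chain, averaged 9405.2 ± 512 and 9402.9 ± 306 RPKM in trained and untrained KO muscle and 9556.0 ± 541 and 11483.2 ± 621 in trained and untrained WT muscle (0.26, SE 0.0812). Myl1, a fast light chain, differed by 0.29 (SE 0.10), Tpm1, the alpha tropomyosin that fell in WT, by 0.18 (SE 0.0757), and Myh4 by 0.20 (95% interval -0.0138 to 0.42). In Actn3, Mylpf, Myl1 and Tpm1 the untrained KO mean lay nearer to the trained than to the untrained WT mean, and in Myh4 nearer to the untrained one. After quantile normalization the list median was 0.0416.

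Heat shock proteins and chaperones had 7 of 27 below 0 and 0 above at an unadjusted p under 0.05 (25.9%, against 8.40% of all tested genes). Their median was -0.20, from responses of -0.13 in KO and 0.15 in WT. Cryab, the small heat shock protein of striated muscle and lens, averaged 395 ± 50.6 RPKM in KO trained and 472 ± 73.2 in KO untrained muscle, against 622 ± 105 in WT trained and 445 ± 91.4 in WT untrained muscle (SD, n = 4 per group; difference -0.74, SE 0.21). Hspb7, the cardiovascular small heat shock protein, averaged 64.9 ± 9.48 and 96.7 ± 8.42 RPKM in trained and untrained KO muscle and 113 ± 31 and 86.4 ± 23.5 in trained and untrained WT muscle (-0.97, SE 0.29). Bag3, the co-chaperone of selective autophagy at the Z-disc, differed by -0.51 (SE 0.13). Hspb6 belongs here as well, and exons of Hspb6 overlap genes on either strand and those of Cryab a gene on the other, so both levels are uncertain. The median was -0.0939 without KO untrained 1.

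Tendon genes had the lowest median of any list with 8 or more tested genes, -1.01, from responses of -0.30 in KO and 0.70 in WT. Of 16 tested, all lay below 0, where 61.6% of all tested genes did, and none passed at an adjusted p. At an unadjusted p under 0.05 there were 10 (62.5%, against 8.40% of all tested genes). Beside Prg4, Thbs4 and Angptl7, Col12a1, a fibril-associated collagen, averaged 1.04 ± 0.485 RPKM in KO trained and 1.23 ± 0.215 in KO untrained muscle, against 1.47 ± 0.128 in WT trained and 0.808 ± 0.0594 in WT untrained muscle (SD, n = 4 per group; difference -1.08, SE 0.30). Comp, the cartilage oligomeric matrix protein, chosen after its values were seen, measured 3.70, 5.37, 9.74 and 4.97 RPKM in KO trained and 5.82, 4.75, 12 and 5.16 in KO untrained muscle, against 10.8, 8.81, 8.56 and 9.66 in WT trained and 4.77, 4.74, 4.63 and 4.61 in WT untrained muscle (-1.20, SE 0.39). WT trained and WT untrained did not overlap, and the KO libraries numbered 3 again held the highest values of their groups. Of the genes that define tendon cells, Tnmd, a tenomodulin chosen in that way, differed by -0.78 (SE 0.35) and Scx, the tendon transcription factor, by -0.0363 (SE 0.32). The summed level of the tendon list was 139 to 308 RPKM in KO trained, 211 to 347 in KO untrained, 293 to 368 in WT trained and 170 to 209 in WT untrained muscle. In whole muscle, fewer cells of a type and less RNA per cell cannot be told apart, and the part of tendon tissue in the differences above was not tested.

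The KO libraries numbered 3 were the highest of their groups for more than 1 list. Their mean over the slow fibre list was 0.60 trained and 0.78 untrained on the log2 scale, relative to the WT untrained mean, against -0.12 to 0.13 in the other 3 KO trained and -0.0844 to 0.45 in the other 3 KO untrained libraries. Their tendon mean was 0.66 trained and 0.84 untrained, and their adipocyte mean 0.75 trained and 0.99 untrained. Without this pair the slow fibre median was -0.70 and the tendon median -1.03, beside -0.70 and -1.01 with it. Genes passing at an adjusted p under 0.05 then numbered 4, all below 0: Prg4 (-1.44), Comp (-1.17), Myh2 (-0.91) and Barx2 (-1.25). The pair was set aside after these values were seen.

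**Figure D4:**
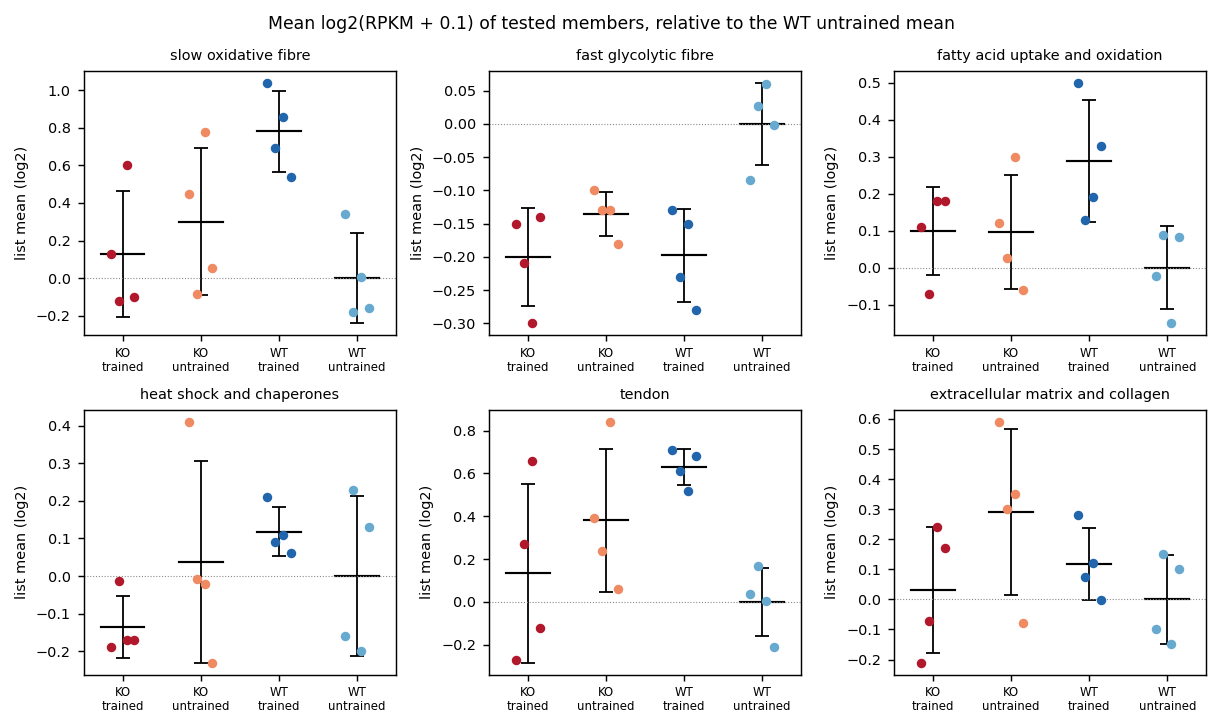
Mean log2(RPKM + 0.1) over the tested genes of 6 lists in each library (vertical axis, relative to the WT untrained mean, shown as a dotted line), with KO trained, KO untrained, WT trained and WT untrained muscle from left to right. Points are libraries, long bars means and error bars SD (n = 4). In the slow fibre and tendon lists all 4 WT trained libraries lie above all 4 WT untrained libraries, while the KO groups overlap.

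Extracellular matrix and collagen genes lay below 0 in 40 of 40, where 61.6% of all tested genes did, and 6 of them at an unadjusted p under 0.05 (15%, where 6.05% of all tested genes did), with a median of -0.32 from responses of -0.27 in KO and 0.0516 in WT. The list median of KO minus WT was 0.28 in untrained and -0.0671 in trained muscle, which came from different mice. List means of untrained libraries overlapped, at -0.0793 to 0.59 in KO and -0.15 to 0.15 in WT (log2 scale, relative to the WT untrained mean). KO against WT was not tested. Lox, which cross-links collagen, differed by -0.82 (SE 0.24), Fbln1, a fibulin of elastic fibres, by -1.03 (SE 0.31), Bgn, the proteoglycan biglycan, by -0.63 (SE 0.19), and Sparc, a matrix glycoprotein, by -0.46 (SE 0.20). Medians below 0 were also found for adipocyte and nerve genes, given next, and for 3 tested neutrophil genes (-0.55). Red blood cell genes went the other way, with a median of 0.18 and 3 of 4 above 0, but -0.17 without KO trained 4. Adipocyte genes had a median of -0.58. Acaca, Retn and Pparg, 3 of 15, lay below 0 and 0 above at an unadjusted p under 0.05 (20%, against 8.40% of all tested genes). The list median of KO minus WT was 0.58 in untrained and -0.10 in trained muscle. The adipocyte sum was 1053.1 to 1741.8 RPKM in KO trained, 1268.5 to 1975.6 in KO untrained, 1220.4 to 1427.8 in WT trained and 1335.4 to 1524.3 in WT untrained muscle. A sum follows its most abundant members, and Retn, with group means up to 4.36 RPKM, adds little to it. It averaged 1331.6 RPKM in WT trained and 1464.8 in WT untrained muscle, while the median WT response of the list was 0.31. The sum is therefore not read as an amount of fat tissue. Ucp1, the uncoupling protein of brown fat, was at 0 in every library. Adipoq, adiponectin, chosen after its values were seen, differed by -0.83 (95% interval -2.13 to 0.47). Nerve and Schwann cell genes had a median of -0.62, with 0 at an unadjusted p under 0.05. Of the 9, 9 lay below 0, where 61.6% of all tested genes did. Their list median of KO minus WT was 0.52 in untrained and -0.0763 in trained muscle. The nerve sum was 47.1 to 67.2 RPKM in KO trained, 69.1 to 155 in KO untrained, 36.8 to 104 in WT trained and 53.0 to 68.5 in WT untrained muscle. The median of the nerve list was -0.34 without KO untrained 3 and -0.36 without WT trained 1.

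For progenitor, macrophage, endothelial, smooth muscle and type 2 genes the share at an unadjusted p under 0.05 was near or under the 8.40% of all tested genes. Fibro-adipogenic progenitor genes had a median of -0.34 with 1 of 16 below 0 (6.25%), Cd34 (-0.35), and macrophage genes -0.33 with 0 of 11. Endothelial genes had a median of -0.17 with 2 of 18 (11.1%), Tie1 (-0.33) and Eng (-0.34), and smooth muscle and pericyte genes -0.29 with 0 of 14. The macrophage sum lay between 64.9 and 151 RPKM in all libraries, and the endothelial sum was 197 to 216 RPKM in KO trained, 214 to 251 in KO untrained, 206 to 279 in WT trained and 223 to 251 in WT untrained muscle. Genes of the type 2 immune response, the setting in which interleukin-13 is best known, had a median of -0.15 with 0 of 10 at that level. Of 14 T, B and natural killer cell genes in the table none reached the filter. Leaving out WT trained 1 gave medians of -0.19 for macrophage, -0.0917 for endothelial, -0.19 for smooth muscle and -0.0654 for type 2 genes, and other single libraries took the macrophage median to -0.16 and the type 2 median to -0.32. The part of these cells in the matrix difference was not tested.

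Angiogenesis genes had 6 of 20 below 0 and 0 above at an unadjusted p under 0.05 (30%, against 8.40% of all tested genes), with a median of -0.29. They included Fgf1, Thbs1, Epas1, a hypoxia-inducible factor (-0.38, SE 0.12), and Angpt1, a ligand that steadies vessels (-0.48, SE 0.19). Secreted muscle factors had a median of -0.41, with 4 of 10 below 0 and 0 above at that level (40%, against 8.40% of all tested genes). Among them were Fst, the myostatin antagonist follistatin (-0.90, SE 0.29), Metrnl, a meteorin-like factor (-0.89, SE 0.37), and Vegfb, a vascular growth factor (-0.40, SE 0.17). Interferon-stimulated genes had 2 of 25 below 0 and 0 above (8%, about the share of all tested genes), with a median of -0.27. Calcium handling genes had 4 below and 4 above 0 of 32 at that level (25%, against 8.40% of all tested genes). Those below were led by Nfatc4, a calcineurin-dependent transcription factor (-0.60, SE 0.20). Those above were led by Jph1, the junctophilin of the triad (0.19, SE 0.0664), and Ppp3cb, a calcineurin catalytic subunit (0.28, SE 0.10).

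Other lists had few or no genes at an unadjusted p under 0.05. Cytosolic ribosome genes had a median of 0.0697 with 0 of 62 below and 3 above 0 at an unadjusted p under 0.05 (4.84%, under the 8.40% of all tested genes). The 3 were Rps21 (0.29), Rpl34 (0.28) and Rps20 (0.23). Of the 62, 51 lay above 0, where 38.4% of all tested genes did, and the median ran from 0.027 without WT trained 4 to 0.15 without WT trained 1. Proteasome genes had a median of 0.0444 with 0 of 31, genes of the circadian clock 0.0394 with 0 of 17, and those of atrophy and FoxO signalling -0.0393 with 0 of 23. Immediate early genes had a median of -0.16 with 0 of 22, satellite cell genes -0.13 with 0 of 10 (-0.00153 without WT trained 1 and -0.20 without WT trained 3), and neuromuscular junction genes -0.0487 with 0 of 13. The sign of several of these rested on 1 library: the clock median was -0.015 without WT trained 3, the atrophy median 0.0914 and the neuromuscular junction median 0.000267 without WT trained 1, and the immediate early median 0.0161 without KO untrained 1. After quantile normalization the atrophy median was 0.0177 and the neuromuscular junction median 0.0188. With intervals as wide as those above, a lack of such genes does not show that the responses were alike.

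**Figure D5:**
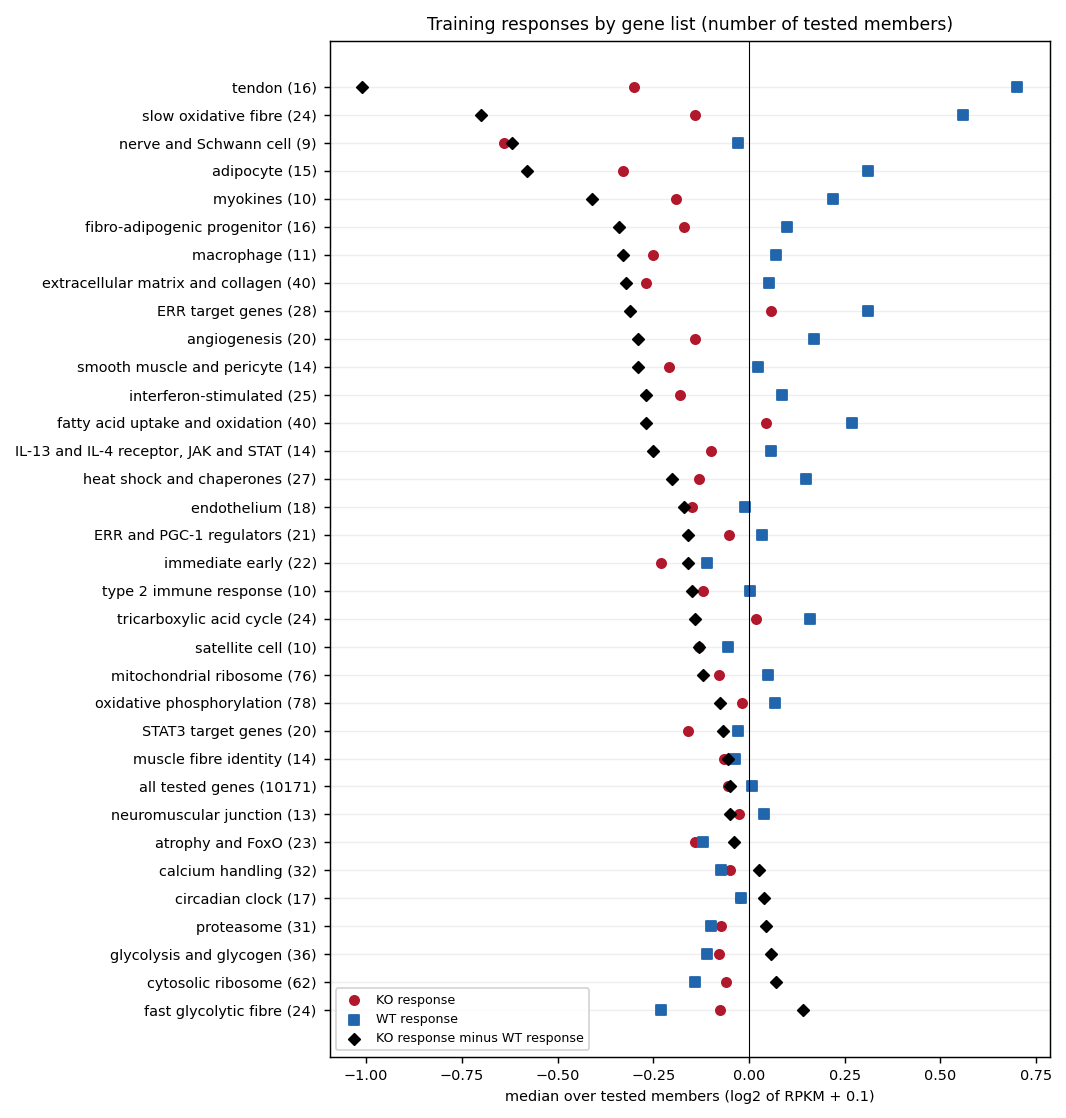
Medians over the tested genes of each list with 8 or more (number in brackets) for the KO response (circles), the WT response (squares) and their difference, KO minus WT (diamonds), on the log2(RPKM + 0.1) scale, ordered by the difference. Tendon (-1.01) and slow fibre genes (-0.70) lie at one end and fast glycolytic fibre genes (0.14) at the other, and all tested genes at -0.0495.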

How the data were processed

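Gene expression was measured by RNA-seq of 16 gastrocnemius muscles, 4 per group, each from a mouse of its own. Polyadenylated RNA libraries were made with a stranded kit from Trizol-extracted RNA, per the labels' protocols. The authors deposited 1 table of RPKM per gene with gene positions. Positions follow mm10, a build named per the submitters' processing notes. Aligner, counter, annotation and any use of strand in counting were not given in the sources used here, so levels of overlapping genes are uncertain. Whole reads were recovered from the RPKM steps: 100.0000% of values above 0 were whole within 0.01 read, over 17402 genes, which gave totals of 16307025 to 20074677 reads per library.

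RPKM values were taken as log2(RPKM + 0.1), which understates changes of low genes. Genes reaching 1 RPKM in 4 or more libraries were fitted with limma 3.58.1 (statmod 1.5.0, R 4.3.3; trend and robust moderation), with 1 mean per group over all 16 libraries. The difference of responses was 1 contrast, two-sided, with Benjamini-Hochberg adjustment over all 10171 tested genes and a threshold of 0.05. Intervals are 95% limma intervals, and limits for a count of 0 cover counting error only. The fit was tested on simulated data. Because KO and WT responses share no library, they are given side by side, but both enter the difference. Tables and figures used Python 3.11.15, NumPy 2.4.6, pandas 2.3.3 and matplotlib 3.10.9.

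The comparison and the gene lists were chosen with earlier results of these data known. Named were, without unnamed gene models, the 12 genes of smallest p in each direction, the 8 largest differences at an unadjusted p under 0.01, up to 6 genes of opposite responses, up to 4 genes of each list by p, and a fixed set of pathway genes. Comp, Myh7, Tnni1, Tnnt1, Tnnc1, Myh1, Tnmd, Scx, Fabp3, Cpt1b and Adipoq fall outside that rule and were chosen after their values were seen. Alternatives changed the normalization, the low-value filter, the added constant, moderation, library weights, a replicate block, a fit on recovered reads and which libraries entered.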

Additional observations from a re-analysis of the deposited data

Results flagged for a closer look

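In 14 of 232 groups of 4 libraries, 1 library lay so far from the other 3 that its gap divided by the group's range passed Dixon's 95% critical value. Chance flags about 1 in 20 groups. In KO trained muscle, library 3 was the high one for Khdrbs3 (4.89 RPKM), Cryab (470 RPKM) and Tnni1 (49.5 RPKM). In KO untrained muscle, library 3 was the high one for Barx2 (3.79 RPKM), Esrrg (5.36 RPKM) and Comp (12 RPKM), and library 1 for Il13ra1 (1.10 RPKM). In WT trained muscle the high libraries were library 2 for Twistnb (4.13 RPKM), library 1 for Ldhb (244 RPKM) and library 4 for Col12a1 (1.66 RPKM), and the low ones were library 2 for S100a5 (0.973 RPKM) and library 4 for Mylpf (8746.4 RPKM). In WT untrained muscle library 3 was low for Slc36a2 (0.442 RPKM), and library 1 had the lowest share of reads in listed genes (80.0%).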

How the results depend on the processing

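Over 29 other fits, 16 of which leave out 1 library, the genes passing at an adjusted p under 0.05 (limma) numbered 0 except under 4: 1 after quantile normalization (Hspb6), 1 without a filter on low values (an unnamed gene model), 2 without KO trained 3, and 4 without both KO trained 3 and KO untrained 3, a setting added after seeing the data. Leaving out 1 library gave 0 to 2, and a threshold of 0.1 gave 0. At an unadjusted p under 0.05 the 854 genes became 496 with a filter at 5 RPKM, 1397 with each library's listed-gene read share in the model (added after seeing the data), and 577 to 1317 leaving out 1 library, the most without KO untrained 4. Of 2985 values of 104 followed genes, 2976 kept their direction. The other 9 were all of Scx (-0.0363), at 0.0445 after quantile normalization, 0.19 without both WT trained 1 and KO trained 3, 0.16 without both KO libraries numbered 3, and -0.22 to 0.15 leaving out 1 library. The causes were not tested. The numbers in the titles were not taken to pair samples: 5 of 24 same-number pairs had a correlation of deviations over 0.1, from -0.18 to 0.44. Between KO trained and KO untrained muscle it was over 0.1 for 3 of 4 numbers (0.149, 0.191 and 0.442, and 0.0523 for number 4). KO trained 2 correlated best with KO untrained 1 (0.207), and KO trained 4 with KO untrained 3 (0.167). A replicate block gave 0 genes at an adjusted p under 0.05 and 800 at an unadjusted one, 724 of them shared with the same sign. A voom fit on the recovered reads gave 0 genes at an adjusted p under 0.05 and 846 at an unadjusted one. The edgeR test planned for a table of counts was not run. With 4 mice per group, a typical interval of 0.31 on either side limits what could be detected.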
